A study of Equus caballus with 2 samples.

Results

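The genes described here encode proteins of intermediate filaments, the rope-like part of the cytoskeleton and of the nuclear lamina, and one linker to them. They were the 10 genes *VIM*, *KRT7*, *KRT8*, *KRT18*, *KRT19*, *KRT1*, *NES*, *DES*, *LMNA* and *PPL*, of which 8 were found by symbol among the 21426 genes listed for each library. No row carried the symbol *KRT18* or *KRT19*, 5196 listed genes had no symbol, and both keratins were not analysed here. The members were chosen by their symbols after earlier results of the control and TGF-β1 contrast in these libraries had been seen, so their levels are given as a description.

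The study grew endometrial fibroblasts of 4 mares on collagen-coated hydrogels, and cells of the 4 mares were pooled before droplet capture. The control library came from cells kept in serum-free medium with bovine serum albumin and nothing else, and the TGF-β1 library from cells that received 10 ng/ml human recombinant TGF-β1 in the same medium for 24 h. Each group was 1 library, the cells carry no mare label in the deposited counts, and the contrast could not be tested. Library preparation, mare composition and treatment cannot be told apart, and every difference describes these 2 libraries. The fibroblasts had been expanded in culture, and no freshly isolated cells were analysed here.

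Intermediate filaments are built from tissue-specific proteins. Vimentin is the filament protein of fibroblasts and other mesenchymal cells, desmin that of muscle, and keratins those of epithelia, where a type I keratin such as KRT18 or KRT19 pairs with a type II keratin such as KRT7, KRT8 or KRT1. Nestin joins vimentin or desmin filaments in immature or remodelling cells, lamins line the inner nuclear membrane, and periplakin ties filaments to cell junctions without forming filaments itself.

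Cells with at least 20000 UMIs (unique molecular identifiers, each marking 1 captured transcript), 3500 or more genes and a mitochondrial share of UMIs under 4% were kept. They numbered 3865 of 4384 barcodes in the control library and 4513 of 5124 in the TGF-β1 library. The kept control cells held 210497250 UMIs with a median of 50313 per cell, and the kept TGF-β1 cells held 219731144 UMIs with a median of 43142. Only 2 kept cell barcodes had the same sequence in both libraries. Levels are UMIs summed over the kept cells per 1000000 UMIs (CPM), and differences are log2 ratios of TGF-β1 over control with exact 95% binomial intervals. Shares of cells were taken after each cell had been thinned at random to 20000 UMIs, with exact (Clopper-Pearson) intervals, so that the deeper control cells had no advantage. All intervals cover counting error only. UMIs come from the 3′ ends of transcripts and were not divided by length, so levels are compared within a gene and not between genes. Keratins are a family of similar sequences, and how UMIs of near-identical copies were assigned was not examined here.

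The cells carried the markers of their label. *COL1A1*, *COL1A2* and *COL3A1*, which encode the main fibrillar collagen chains, stood at 5608, 4256 and 4456 CPM in the control library and at 6376, 5084 and 5583 CPM in the TGF-β1 library. Over the 9 fibroblast markers the sum was 17383 CPM in control and 19766 CPM after TGF-β1, with 1 gene more than 2-fold higher, 2 more than 2-fold lower and a median log2 ratio of 0.03. None of the 19 epithelial markers had a mean of at least 10 CPM. Together they reached 5.41 CPM in the control and 6.99 CPM in the TGF-β1 library, and the most abundant was *SPINT1*, a protease inhibitor gene, at 2.98 and 4.76 CPM. Thinned UMIs of *EPCAM*, an epithelial adhesion molecule, were found in 1 of 3865 cells of the control and in 0 of 4513 of the TGF-β1 library. For a count of 0 a limit of 3 cells with a UMI was set, here 0.0665%, and the exact interval ran to 0.0817%. Without thinning, *EPCAM* UMIs were found in 0.0665% of TGF-β1 cells. *CDH1*, which encodes E-cadherin, was found in 1 cell of the control and 2 of the TGF-β1 library. The keratin transcripts below were therefore measured in libraries in which the defining epithelial markers were at or near 0. *PDGFRA* (50.5 and 16.7 CPM) and *THY1* (215.5 and 87.5 CPM), surface markers of fibroblasts, were lower after TGF-β1 (log2 ratios -1.60 and -1.30), and *FAP*, a protease of activated fibroblasts, was higher (67.9 and 210.9 CPM, log2 ratio 1.63). *PDGFRB*, the other receptor for platelet-derived growth factor, was at 80.1 and 49.0 CPM (-0.71). The other marker lists were at low levels or were shared with fibroblasts. The 6 endothelial markers summed to 1.48 and 1.58 CPM, with *CLDN5* highest at 0.556 and 0.969 CPM. Of the immune markers, *CD68*, a lysosomal gene, gave 42.6 of 42.7 CPM in the control and 43.1 of 43.1 CPM in the TGF-β1 library. *PTPRC* was found in 0 of 3865 and 0 of 4513 thinned cells. The limit of 3 cells with a UMI is 0.0776% and 0.0665%, and the exact intervals run to 0.0954% and 0.0817%. Of the mesothelial markers, *WT1*, a transcription factor that endometrial stroma also expresses, gave 40.3 of 40.5 and 40.7 of 41.0 CPM. The 10 cycling markers summed to 78.5 CPM in control and 55.4 CPM after TGF-β1, with *UBE2C*, a mitotic ubiquitin-conjugating enzyme gene, highest at 19.8 and 20.2 CPM and *TOP2A*, a topoisomerase gene, at 13.2 and 8.25 CPM (log2 ratio -0.67).

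Across the members, transcripts of keratins, vimentin, lamin A/C and periplakin were less abundant in the TGF-β1 library, those of nestin were more abundant, and those of desmin differed little. Among the 7 members whose mean reached 10 CPM, 3 were more than 2-fold lower after TGF-β1 (*KRT8*, *PPL* and *KRT7*) and 0 were more than 2-fold higher. Among all 7658 genes at this level, 2.13% were more than 2-fold lower, 2.3% more than 2-fold higher and 4.43% either. Over these 7658 genes the log2 ratio had a median of 0.01. The 3 lower members were below 10 CPM after TGF-β1 and reached the minimum mean only through their control level, so their number supports nothing. Because earlier values of this contrast were known when the members were selected, these counts are description only. *VIM* lay just inside the 2-fold limit, and *KRT1* had too low a level to be counted.

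**Figure D1:**
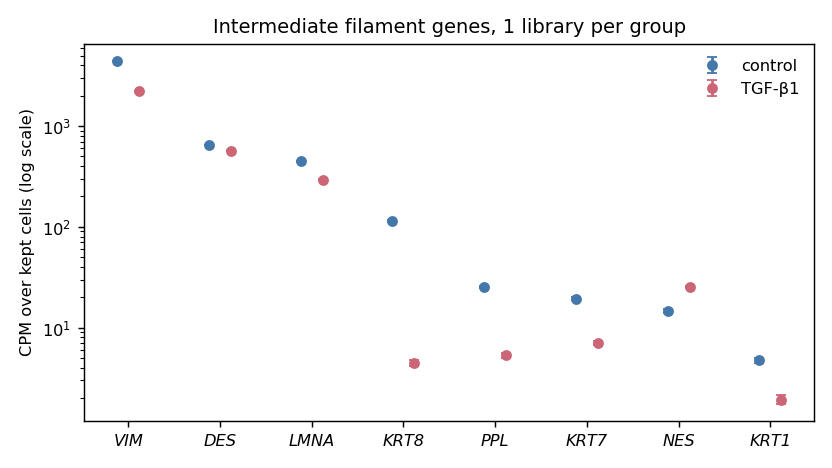
CPM over the kept cells (log axis) of the 8 intermediate filament genes in the control and TGF-β1 libraries, with exact 95% Poisson intervals that are mostly smaller than the points. Each point is 1 library, and *KRT8* shows the widest gap, from 114 to 4.48 CPM. Levels are to be compared within a gene only.

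Vimentin was the member with the most UMIs. *VIM* (ENSECAG00000004216) gave 926062 UMIs and 4399 CPM in the control library, and 492208 UMIs and 2240 CPM in the TGF-β1 library. The log2 ratio was -0.97 (-0.98 to -0.97), which leaves 50.9% of the control level. The transcript stayed present in every cell, since all 3865 control and all 4513 TGF-β1 cells had *VIM* UMIs after thinning.

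The lower *VIM* level was a shift of the whole cell population. Control cells had a median of 86 *VIM* UMIs of 20000, with a 5th percentile of 46 and a 95th percentile of 139.8. TGF-β1 cells had a median of 43, with a 5th percentile of 22 and a 95th percentile of 72. The ranges of the libraries overlapped, but 99.0% of TGF-β1 cells lay below the control median and 55.8% lay below the control 5th percentile. The relative spread over cells was similar, with a coefficient of variation of 33.1% in control and 34.6% in TGF-β1 cells. The ratio also varied little with depth. When the cells of each library were split into 4 equal groups by UMIs per cell (depth groups), the log2 ratio of *VIM* lay between -1.02 and -0.92.

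**Figure D2:**
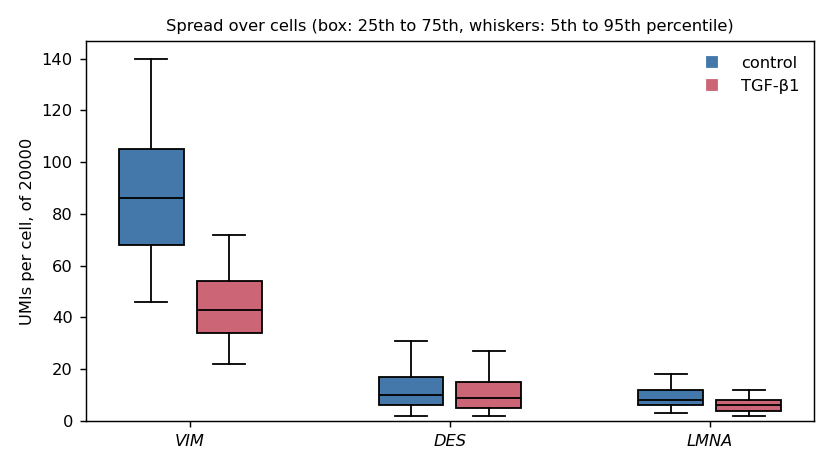
UMIs per cell after thinning to 20000 UMIs for *VIM*, *DES* and *LMNA* in 3865 control and 4513 TGF-β1 cells (boxes span the 25th to the 75th percentile with the median as a line, whiskers the 5th to the 95th). The *VIM* boxes do not overlap, with medians of 86 and 43, and the *DES* boxes nearly coincide, with medians of 10 and 9.

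Desmin, the muscle member of the same type III family as vimentin, was widely expressed in these fibroblasts. *DES* (ENSECAG00000013832) gave 136029 UMIs and 646 CPM in control and 125093 UMIs and 569 CPM after TGF-β1. This is a log2 ratio of -0.18 (-0.19 to -0.17). After thinning, 98.4% of cells had *DES* UMIs in either library. The cells of the libraries overlapped almost fully, as 50.1% of TGF-β1 cells lay below and 44.3% above the control median of 10 UMIs. The sign of the difference depended on depth. In the depth group with the fewest UMIs the log2 ratio was 0.11 (median 36147 UMIs in control and 31712 in TGF-β1 cells), and over the other 3 groups it ran from -0.28 to -0.12.

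Most smooth muscle markers differed from *DES* in direction between the libraries, and *MYH11* did not. The 7 smooth muscle markers summed to 8827 CPM in control and 13287 CPM after TGF-β1, with a median log2 ratio of 0.62. *ACTG2* (349 to 965 CPM, log2 ratio 1.47) and *CNN1* (193 to 453 CPM, 1.23), which encode a smooth muscle actin and calponin, rose more than 2-fold. *ACTA2*, the α-smooth muscle actin gene, was at 3608 and 4745 CPM (0.39), *TAGLN*, which encodes transgelin, at 4603 and 7052 CPM (0.62), and *MYH11*, the smooth muscle myosin heavy chain gene, was lower at 42.9 and 25.3 CPM (-0.76). *MYOCD*, a transcriptional coactivator of these genes, was at 8.13 and 12.8 CPM (0.65). Pearson correlations on log2(UMIs + 1) at equal depth were ranked, here and below, over genes with a symbol other than the members. Of 9662 such genes over 3865 control cells, the highest with *DES* were *ACTA2* (0.53), *TAGLN* (0.53), *MYL9* (0.50), *TPM2* (0.49) and *ACTB* (0.48). They were followed by *C1QTNF3* (0.48) and *HSPB1* (0.46). In TGF-β1 cells the highest were *TAGLN* (0.44), *CNN1* (0.43) and *HSPB1* (0.41), a small heat shock protein gene. Its lowest correlation was that with *EDNRB*, an endothelin receptor gene, in control (-0.38) and in TGF-β1 cells (-0.25). The genes set beside *DES* were chosen after their values were seen, and the cells of a library share its preparation and its 4 mares.

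In control cells *VIM* itself varied with another set of genes. Its highest correlations there were those with *LGALS1* (0.45) and *S100A10* (0.42), followed by *ANXA2* (0.31), *NME2* (0.31) and *CRIP1* (0.30). LGALS1 is a secreted galectin, and S100A10 and ANXA2 form a membrane-bound complex. The lowest were *RASSF8* (-0.25), *IGFBP5* (-0.22) and *DLG1* (-0.22). Of these genes, *S100A10* fell between the libraries like *VIM*, from 1018 to 264 CPM (log2 ratio -1.95), whereas *ANXA2* was at 1605 and 1508 CPM. *DLG1*, which encodes a scaffold of cell polarity, rose from 149 to 314 CPM (1.07). Over the 4513 TGF-β1 cells the 3 genes closest to *VIM*, chosen after their values were seen, were *ACTA2* (0.34), *ACTB* (0.34) and *TAGLN* (0.34). These 3 genes are also among those named above as closest to *DES* in control cells.

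Of the other members, *LMNA* (0.27) and *DES* (0.19) had the highest correlations with *VIM* over control cells, and *DES* (0.29) and *LMNA* (0.16) over TGF-β1 cells. When control cells were split into 4 groups by *VIM*, the group with the least had 7.45 ± 3.88 *LMNA* UMIs (SD over 997 cells), and the group with the most had 11.1 ± 5.52 (SD over 964 cells). For *DES* these means were 10.5 ± 8.69 and 13.8 ± 10.2. In TGF-β1 cells the *DES* means were 8.53 ± 6.74 in the lowest and 14.1 ± 9.63 in the highest group of *VIM*. In both libraries the cells of these groups overlapped broadly.

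*KRT8*, a type II keratin of simple epithelia, had the lowest log2 ratio of the 8 members. *KRT8* (ENSECAG00000021775) gave 24061 UMIs and 114 CPM in the control library, and 985 UMIs and 4.48 CPM in the TGF-β1 library. The log2 ratio was -4.67 (-4.77 to -4.58), a level 25.5-fold lower. After thinning, 979 of 3865 control cells had *KRT8* UMIs (25.3%, 24.0% to 26.7%), as had 160 of 4513 TGF-β1 cells (3.55%, 3.02% to 4.13%). Without thinning these shares were 33.0% and 5.56%. No second cell type was separated in these libraries, so UMIs from free RNA were not measured beside this or any other share of cells, and shares of cells with a UMI may include them.

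Unlike *VIM*, *KRT8* was unevenly spread over cells. In the control library the 10% of cells with the most *KRT8* held 84.8% of its thinned UMIs, and the variance was 24.9 times the mean. Most control cells had none, 18.0% had at least 2 UMIs of 20000, 11.5% had at least 5, and 3.03% had at least 20. The highest control cell had 103. In the TGF-β1 library 1.24% of cells had at least 2, 0.465% at least 5, and 2 cells had at least 20, with a maximum of 24. Fewer cells with UMIs and fewer UMIs in them went together, as the mean over cells with any *KRT8* was 8.61 UMIs in the control and 2.58 in the TGF-β1 library.

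The *KRT8* level in control cells differed with depth. From the depth group with the fewest UMIs to that with the most it was 69.1, 102, 136 and 126 CPM, and in TGF-β1 cells 4.40, 5.07, 3.62 and 4.75 CPM. Control cells with thinned *KRT8* had a median of 53229 UMIs against 49499 in those without, and 3.17% against 2.56% of them had at least 3 of 10 cycling markers. Over the depth groups, the log2 ratio of *KRT8* ranged from -5.23 to -3.97. In the cycling cells alone, 105 control and 110 TGF-β1 cells with 879 and 17 *KRT8* UMIs, it was -5.64 (-6.43 to -4.96). The epithelial markers summed to 5.31 CPM in control cells with thinned *KRT8* and 5.47 CPM in those without, and *SPINT1* was again the most abundant at 2.40 and 3.29 CPM. In TGF-β1 cells the sums were 5.625 and 7.133 CPM, with *SPINT1* at 2.19 and 4.92 CPM. The sums over all 19 markers were thus lower in cells with *KRT8* in both libraries. Without *SPINT1*, left out after values were seen, the other epithelial markers summed higher in cells with *KRT8* in both libraries. These sums are low, and the difference was not tested. Of the 19 markers, 10 had no thinned UMI in control cells with *KRT8* and 4 in those without. In TGF-β1 cells these numbers were 13 and 5. The fibroblast markers summed to 16737 and 17255 CPM in control cells with and without thinned *KRT8*.

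Outside the members, the genes closest to *KRT8* over control cells were *CCN5* (0.20), *EEF1A1* (0.20), *RPS4X* (0.19), *RPS6* (0.19) and *ANXA1* (0.19). The lowest were *DCN* (-0.23), *RBP2* (-0.17) and *LUM* (-0.16). The member *KRT7* had a correlation of 0.20 with *KRT8*, above those of *RPS4X*, *RPS6* and *ANXA1*. CCN5 is a matricellular protein, EEF1A1 a translation factor, and DCN and LUM are small proteoglycans of the collagen matrix. These correlations were weak, and with most cells at 0 UMIs of *KRT8* they are given as values only. *CCN5* was also lower in the TGF-β1 library, at 271 and 133 CPM (log2 ratio -1.03), while *LUM* stood at 551 and 564 CPM.

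*KRT7*, the other simple epithelial type II keratin among the members, was lower by a smaller factor. *KRT7* (ENSECAG00000020216) gave 4066 UMIs and 19.3 CPM in control and 1548 UMIs and 7.04 CPM after TGF-β1. Its log2 ratio was -1.46 (-1.54 to -1.37). Over the depth groups this ratio ran from -1.56 to -1.08. In cycling cells alone, with 118 control and 60 TGF-β1 UMIs, it was -0.93 (-1.40 to -0.47), an interval that spans the 2-fold limit. After thinning, control cells with *KRT7* made up 22.7% (21.4% to 24.1%) and TGF-β1 cells with it 11.7% (10.8% to 12.7%). Cells with *KRT7* mostly had a UMI or a few, with a maximum of 15 in control and 5 in TGF-β1 cells. The variance was 2.63 times the mean in control cells and 1.31 times in TGF-β1 cells, so *KRT7* was spread more evenly than *KRT8*.

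**Figure D3:**
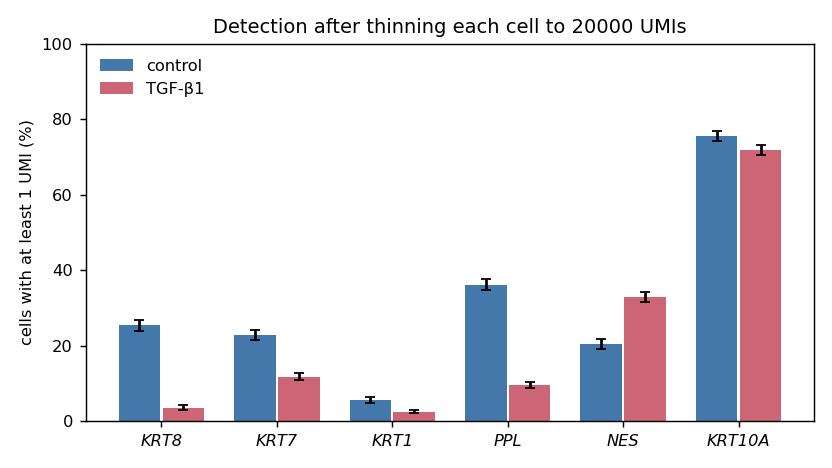
Percent of cells with at least 1 UMI after thinning to 20000 UMIs, for members not found in nearly every cell and for *KRT10A*, in 3865 control and 4513 TGF-β1 cells, with exact 95% binomial intervals for counting error. *KRT8* bars are at 25.3% and 3.55%, *NES* is the gene with the higher TGF-β1 bar (20.4% and 32.8%), and the *KRT10A* bars are at 75.7% and 72.0%.

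*KRT7* and *KRT8* were found together more often than their separate shares would give. In the control library *KRT7* was found in 32.8% of the 979 cells with *KRT8* (29.9% to 35.8%) and in 19.3% of the 2886 cells without (17.9% to 20.8%), an odds ratio of 2.04. Both genes were found in 321 cells, where independent detection over the pooled cells would give 222.7. Cells of the 4 mares were not separated, so these values do not describe co-detection within a mare. The share was higher in cells with more *KRT8*. *KRT7* was found in 23.0% of 283 cells with 1 *KRT8* UMI, in 28.9% of 253 cells with 2 to 4, in 39.3% of 326 cells with 5 to 19, and in 47.0% of 117 cells with 20 or more (37.7% to 56.5%). In the TGF-β1 library the odds ratio was 2.03, with *KRT7* in 20.6% of the 160 cells with *KRT8* (14.6% to 27.7%) and in 11.3% of the other 4353 (10.4% to 12.3%). The odds ratios were above 1 in both libraries under each alternative, and their sizes moved with the setting. With at least 2 UMIs of each gene they were 3.25 in control and 4.38 in TGF-β1 cells. *KRT7* was still found without *KRT8* in 558 control cells and in 494 TGF-β1 cells. Co-detection was compared for 9 pairs, of which 4 were added after values were seen.

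Co-detection with *VIM* was in the same direction. *KRT8* was found in 28.6% of control cells at or above the median of *VIM* (26.6% to 30.6%) and in 22.0% of those below it (20.1% to 23.9%). In TGF-β1 cells these shares were 4.56% (3.75% to 5.49%) and 2.45% (1.84% to 3.19%). The cells with *KRT8* thus did not have less *VIM*. Control cells with 20 or more *KRT8* UMIs had 91.7 ± 24.6 *VIM* UMIs (SD over 117 cells), and cells with none had 86.9 ± 29.6 (SD over 2886 cells). For *KRT7* the shares in control cells at or above and below the median of *VIM* were 23.0% and 22.5%. In TGF-β1 cells they were 12.8% (11.5% to 14.3%) and 10.4% (9.17% to 11.8%), and the intervals overlap in each library. The odds ratio in control cells was 1.03, and 1.77 without thinning.

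With *PPL* and *NES*, the keratins had weaker or less stable links. *PPL* was found in 36.1% of control cells with *KRT8* and in 36.1% of those without, and in 14.4% (9.34% to 20.8%) and 9.35% (8.50% to 10.3%) of TGF-β1 cells, with intervals that overlap. *NES* was found in 17.1% of control cells with *KRT8* (14.8% to 19.6%) and in 21.6% of those without (20.1% to 23.1%). By level, the share was 19.8% in control cells with 1 *KRT8* UMI, 15.8% with 2 to 4 and 18.7% with 5 to 19. In the 117 control cells with 20 or more *KRT8* UMIs it was 8.55% (4.17% to 15.2%). In TGF-β1 cells *NES* was found in 39.4% (31.8% to 47.4%) of those with *KRT8* and in 32.6% (31.2% to 34.0%) of those without, and these intervals overlap. The direction of this pair in TGF-β1 cells changed with the thinning depth and with at least 2 UMIs. *PPL* was found in 39.0% of control cells with *KRT7* (35.8% to 42.3%) and in 35.3% of those without (33.5% to 37.0%), an added pair whose intervals overlap. *NES*, also an added pair, was found in 17.5% of control cells with *KRT7* (15.1% to 20.2%) and in 21.3% of those without (19.8% to 22.8%). In TGF-β1 cells these shares were 31.7% (27.7% to 35.9%) and 33.0% (31.5% to 34.4%), and the intervals overlap in each library.

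*KRT1*, a type II keratin of the upper epidermis, was near the lower end of detection. *KRT1* (ENSECAG00000022233) gave 999 UMIs and 4.75 CPM in control and 425 UMIs and 1.93 CPM after TGF-β1. Its log2 ratio was -1.29 (-1.46 to -1.13). Cells with thinned *KRT1* made up 5.46% of the control library (4.76% to 6.22%) and 2.44% of the other (2.01% to 2.93%). *KRT1* was found in 1.71% of the 117 control cells with 20 or more *KRT8* UMIs (0.208% to 6.04%) and in 6.41% of the 2886 cells with none (5.54% to 7.37%), and these intervals overlap. In control cells with 2 to 4 *KRT8* UMIs the share was 1.58% (0.432% to 4.00%) and with 5 to 19 it was 2.76% (1.27% to 5.18%), both below that interval. In the 283 cells with 1 *KRT8* UMI it was 3.89% (1.96% to 6.85%), an interval that overlaps that of cells with none. These groups were set beside *KRT1* after values were seen. Its log2 ratio ranged from -2.42 to -0.80 over the depth groups. In cycling cells alone, with 9 control and 16 TGF-β1 UMIs, it was 0.88 with an interval that includes 0 (-0.39 to 2.24).

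In the RefSeq gene order of the TB-T2T horse assembly, which is not the build of the counts, *KRT7* and *KRT1* have 23 coding genes between them, of which 19 have keratin symbols. *KRT8* had no entry under that symbol, and 7 of the 8 members found in the files were matched.

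Of 29 other keratin genes, 18 had 3 or fewer UMIs in both libraries, 11 of them 0 in both, and only *KRT10A* had a mean of at least 10 CPM. *KRT10A*, named as a form of the type I keratin 10, was at 84.1 CPM in control and 76.3 CPM after TGF-β1. This gave a log2 ratio of -0.14 (-0.17 to -0.11). After thinning, 75.7% of control cells (74.3% to 77.0%) and 72.0% of TGF-β1 cells (70.7% to 73.3%) had *KRT10A*. *KRT10A* was thus also lower after TGF-β1, by a smaller factor than *KRT8*, *KRT7* and *KRT1*. Below that level, and chosen after their values were seen, *KRT28* was higher after TGF-β1 with 50 and 168 UMIs (log2 ratio 1.69, 1.22 to 2.17), as was *KRT23* with 359 and 456 UMIs (0.28, 0.08 to 0.49). Lower, and chosen in the same way, were *KRT24* with 33 and 5 UMIs (-2.78, -4.50 to -1.42) and *KRT25* with 139 and 92 (-0.66, -1.05 to -0.27). *KRT222* was also lower, with 8 and 1 UMIs (-3.06, -8.53 to -0.16). In a pair added after values were seen, *KRT10A* was found in 75.9% of control cells with *KRT8* and in 75.6% of those without. In the TGF-β1 library it was found in 61.9% of the cells with *KRT8* (53.9% to 69.4%) and in 72.4% of those without (71.0% to 73.7%).

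Nestin, a large type IV protein that polymerises with vimentin or desmin, was the member that was higher after TGF-β1. *NES* (ENSECAG00000016987) gave 3080 UMIs and 14.6 CPM in control and 5526 UMIs and 25.1 CPM after TGF-β1. The log2 ratio was 0.78 (0.72 to 0.85). Cells with thinned *NES* made up 20.4% of control cells (19.2% to 21.7%) and 32.8% after TGF-β1 (31.4% to 34.2%). Cells with at least 2 of 20000 UMIs made up 4.99% and 11.4%. The log2 ratio was positive in each of the 4 depth groups, from 0.57 to 1.04. In cycling cells *NES* stood at 31.3 CPM in control (27.4 to 35.6) and 46.9 CPM after TGF-β1 (42.1 to 52.2), both above the level of all kept cells of that library, and the log2 ratio was 0.58.

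The genes closest to *NES* over control cells were *CRIM1* (0.16), *AKAP12* (0.15), *ADGRL3* (0.14), *CTNNA1* (0.14) and *VCL* (0.14). CTNNA1 and VCL link cadherins and integrins to actin. These values are small, and none of the 5 genes was more than 2-fold higher or lower between the libraries. In the fourth added pair, *PPL* was found in 35.7% of control cells with *NES* and in 36.2% of those without, and in 9.86% and 9.37% of TGF-β1 cells, with overlapping intervals in each library.

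Lamin A/C was lower after TGF-β1, and the other lamins were not. *LMNA* (ENSECAG00000011097) gave 93855 UMIs and 446 CPM in control and 64373 UMIs and 293 CPM after TGF-β1. This gave a log2 ratio of -0.61 (-0.62 to -0.59). Control cells had a median of 8 UMIs of 20000 and TGF-β1 cells a median of 6, and 72.5% of TGF-β1 cells lay below the control median. The ratio was between -0.63 and -0.54 in the depth groups. *LMNB1* was at 12.0 CPM in both libraries, and *LMNB2* at 193 and 217 CPM (log2 ratio 0.17, 0.15 to 0.19). These genes encode the B-type lamins, which stay farnesylated and bound to the nuclear membrane. Outside the members, *LMNA* was closest over control cells to *S100A10* (0.32), *LGALS3* (0.26) and *LGALS1* (0.24), genes chosen after their values were seen. Of these, *S100A10* and *LGALS1* also led the list of *VIM*. The correlation of *LMNA* with *VIM* itself was 0.27.

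Of 15 genes for partners of the lamina and for lamin processing found by symbol, 10 reached a mean of 10 CPM, and none of these passed 2-fold. Of these, 6 were higher and 4 lower, with a median log2 ratio of 0.04 against 0.01 over all genes. *ICMT*, which methylates farnesylated lamins, had the highest value (12.8 and 23.4 CPM, 0.87). It was followed by *SYNE1*, a nesprin that spans the outer nuclear membrane (72.6 and 122.7 CPM, 0.76), and by *LEMD3*, an inner membrane protein that also binds SMADs (29.7 and 36.7 CPM, 0.31). *TMPO*, which encodes lamina-associated polypeptides, was the lowest of the 10 (63.9 and 55.3 CPM, -0.21). Below that level, and chosen after its values were seen, *SYNE2*, another nesprin gene, was lower after TGF-β1 with 761 and 346 UMIs (3.62 and 1.57 CPM, -1.20).

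Periplakin transcripts were less abundant after TGF-β1 and were found in fewer cells. *PPL* (ENSECAG00000014320) gave 5318 UMIs and 25.3 CPM in control and 1165 UMIs and 5.30 CPM after TGF-β1. The log2 ratio was -2.25 (-2.35 to -2.16). Cells with thinned *PPL* made up 36.1% of control cells (34.6% to 37.7%) and 9.53% after TGF-β1 (8.69% to 10.4%). Its variance was 1.29 times the mean in control cells and 1.23 times in TGF-β1 cells, so its UMIs were spread far more evenly than those of *KRT8*. Over the depth groups the log2 ratio was nearly constant, from -2.29 to -2.19, and in cycling cells it was -2.54 (-3.10 to -2.02).

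Over control cells *PPL* was closest to *AHNAK* (0.19), *CAT* (0.16), *SOX5* (0.16), *DCLK1* (0.15) and *SETBP1* (0.15). Of these, *AHNAK*, a giant scaffold protein gene (179 to 71.9 CPM, log2 ratio -1.32), *CAT*, the catalase gene (103 to 41.1 CPM, -1.32), *SOX5*, a transcription factor gene (71.8 to 22.8 CPM, -1.65), and *DCLK1*, a microtubule-associated kinase gene (76.3 to 30.4 CPM, -1.33), were also more than 2-fold lower after TGF-β1, and *SETBP1* was not (66.6 and 62.2 CPM). The correlations are weak, and each gene was measured in the same libraries.

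Other plakin and desmosomal linker genes at a mean of at least 10 CPM were not lower to that extent. Of 14 such genes found, 5 reached a mean of 10 CPM and none of these passed 2-fold. Two-library counts were too low to compare for *DSP* (3 and 2 UMIs), and wide for *EVPL* (17 and 11 UMIs, log2 ratio -0.69, -1.93 to 0.49). Both were chosen after their values were seen. *PLEC*, which encodes the widespread filament linker plectin, was the lowest at 48.8 and 34.3 CPM (log2 ratio -0.51, -0.55 to -0.47). *MACF1* (198 and 231 CPM, 0.22) and *DST* (437 and 472 CPM, 0.11), giant linkers of actin and microtubules, were slightly higher, and *JUP*, which encodes plakoglobin, was at 43.8 and 40.6 CPM (-0.11). The median of the 5 was -0.07. *DSC2*, a desmosomal cadherin gene below that level and chosen after its values were seen, was at 2.92 and 6.86 CPM (log2 ratio 1.23).

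Among 13 further filament genes, only *LMNB1* and *LMNB2* reached a mean of 10 CPM. Of those below it, chosen after their values were seen, *BFSP2*, a filament gene of the eye lens, gave 132 UMIs in the control and 1067 in the TGF-β1 library (0.627 and 4.86 CPM, log2 ratio 2.95, 2.69 to 3.23). *NEFM*, the medium neurofilament gene, gave 208 and 882 UMIs (0.988 and 4.01 CPM, 2.02, 1.80 to 2.25), and *NEFL*, the light neurofilament gene, 439 and 849 UMIs (2.09 and 3.86 CPM, 0.89). They were found in few cells, *BFSP2* in 1.14% of those in control and 8.49% after TGF-β1, and *NEFM* in 1.66% and 5.45%. *SYNM*, which encodes synemin, a partner of desmin and vimentin, was at 6.77 and 8.45 CPM (0.32).

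Of the chaperones that bind filament proteins, *CRYAB* was at 77.6 and 49.7 CPM (log2 ratio -0.64, -0.68 to -0.61) and *HSPB1* at 872 and 1097 CPM (0.33, 0.32 to 0.34). *DNAJB6*, a co-chaperone that binds keratins, was at 96.2 and 100.5 CPM, and *HSPA8*, the constitutive heat shock protein gene, at 258 and 270 CPM. None of the 4 genes of this list at a mean of at least 10 CPM passed 2-fold, and their median log2 ratio was 0.06.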

How the data were processed

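Single cell libraries of pooled endometrial fibroblasts were analysed for the control and TGF-β1 groups. The deposited counts are UMI counts per gene and barcode that the authors made with Cell Ranger against EquCab3.0 and Ensembl release 109. The methods and the submitters' processing notes name version 7.1.0, and the file header names 8.0.1. The study's cell filters were applied here as written in its methods. Its doublet and mare calls by Souporcell rest on genotypes in the reads and were not repeated, and no doublet caller was run. Barcodes above the 98th percentile of UMIs were left out as an alternative.

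The members and lists were chosen with earlier results of these data known. A symbol carried by several genes (*CD14*) was left out, and 1 gene or more of the cycling, plakin, lamina, chaperone and mesothelial lists was not found by symbol. Named were all members, list genes whose mean reached 10 CPM by the size of their ratio (up to 4 a list, and all past 2-fold), marker genes that are most abundant or defining, and for *VIM*, *KRT8*, *NES* and *PPL* the 5 genes most correlated over control cells, with the lowest 3 for *VIM* and *KRT8*. Other names are marked as chosen after their values were seen. Of the pairs of genes, 5 were planned and 4 (*KRT7* with *PPL*, *KRT7* with *NES*, *NES* with *PPL*, *KRT8* with *KRT10A*) were added after values were seen. Planned pairs with *KRT18* or *KRT19* could not be made, and sequences of promoters and proteins were not analysed here. Correlations used log2(thinned UMIs + 1). They were ranked over genes with a symbol, other than the members, with a UMI in at least 5% of cells. No ratio had a pseudocount. Sums and ratios were computed with numpy 2.4.6 and pandas 2.3.3, intervals with scipy 1.17.1 under Python 3.11.15, figures were drawn in matplotlib 3.10.9, and the ratio and thinning steps were tested on simulated data. With 1 library per group there is no test and no p-value.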

Additional observations from a re-analysis of the deposited data

Results flagged for a closer look

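In the barcodes that did not pass the cell filter, which no comparison above uses, *KRT1* was higher in the TGF-β1 library than in the control. It had 13.5 CPM (60 UMIs) in the 611 TGF-β1 barcodes left out and 2.91 CPM (11 UMIs) in the 519 control barcodes left out, with a control upper 95% limit of 5.20 CPM. This is the opposite direction to that in the kept cells. The 60 UMIs lay in 14 barcodes, the highest of which held 22, and without that barcode the level was 8.55 CPM. The barcodes left out held 3728 UMIs at the median in control and 6107 after TGF-β1.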

How the results depend on the processing

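No paired analysis was possible because the counts carry no mare labels, and the split of cells by genotype was not repeated here. The log2 ratios of the 8 members kept their sign under all 8 alternatives, and *KRT8* ranged from -4.68 to -4.59. *VIM* moved beyond its narrow counting interval, to -0.98 with all barcodes or without the cells above the 98th percentile of UMIs. With the median-of-ratios size factor or the mean of per-cell CPM it was -0.99. *DES* moved likewise, to -0.17 without the cells above the 98th percentile, -0.19 with the size factor and -0.14 with the mean of per-cell CPM. So did *KRT1*, to -1.12 with all barcodes, and *NES*, to 0.85 with the mean of per-cell CPM. A minimum of 1 CPM gave 418 genes more than 2-fold higher and 419 lower, in place of 176 and 163, and a limit of 1.5-fold gave 474 and 496, by construction. With the latter limit 1 member (*NES*) was higher and 5 were lower (*VIM* and *LMNA* added). Shares of cells move with depth and the UMIs asked for. Control and TGF-β1 cells with *KRT8* made up 20.3% and 2.17% at 10000 UMIs, 33.0% and 5.56% without thinning, and 18.0% and 1.24% with at least 2 UMIs. The odds ratio of *KRT8* with *KRT7* in control cells was 2.35 without thinning and 3.25 with at least 2 UMIs, and in TGF-β1 cells (2.03) it was 2.67 at 10000 UMIs, 2.69 without thinning and 4.38 with at least 2 UMIs. That of high *VIM* with *KRT7* in control cells moved from 1.03 to 1.77 without thinning, and that of high *VIM* with *KRT8* in TGF-β1 cells from 1.91 to 1.47 in a second random draw and 3.83 with at least 2 UMIs. Several odds ratios changed side of 1. *KRT8* with *PPL* in control cells went to 1.05 in a second random draw and 1.20 without thinning, and in TGF-β1 cells from 1.63 to 0.59 at 10000 UMIs, 1.01 in the second draw and 3.63 with at least 2 UMIs. *KRT8* with *NES* in TGF-β1 cells went from 1.34 to 0.68 at 10000 UMIs and 0.76 with at least 2 UMIs. *KRT7* with *NES* in TGF-β1 cells went to 1.04 at 10000 UMIs, 1.32 in the second draw and 1.31 without thinning, from 0.94, and with at least 2 UMIs to 0.40. In control cells this pair went from 0.79 to 0.46 with at least 2 UMIs. *NES* with *PPL* in TGF-β1 cells (1.06) was 1.85 with at least 2 UMIs. *NES* with *PPL* in control cells went to 1.01 in the second draw and 1.13 without thinning, and *KRT8* with *KRT10A* to 0.89 and 0.90. With at least 2 UMIs, *KRT7* with *PPL* in TGF-β1 cells gave no odds ratio. The cause was not tested.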

Other observations

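Over control cells, *KRT1* was closest to *CA4* (0.37), *MGMT* (0.34), *SUSD4* (0.32), *RPS27L* (0.30) and *CDKN1A* (0.29), and *KRT7* to *MT-CO3* (0.26), *CCN5* (0.22) and *ANXA1* (0.21). CDKN1A is an inhibitor of the cell cycle, and MT-CO3 a mitochondrial subunit of cytochrome oxidase. *CCN5* and *ANXA1* are also among the 5 genes outside the members closest to *KRT8*. All were chosen after seeing their values, which describe 3865 cells of 1 library.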
